A study of Mus musculus with 12 samples.

Results

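The genes that encode the proteins of the cytoplasmic ribosome were followed in primordial germ cells of 12 mouse embryos at E13.5. A gene was taken when its identifier belonged to a protein-coding symbol made of Rpl or Rps and a number, or to Rplp0, Rplp1, Rplp2 or Rpsa. Symbols of pseudogenes, the kinases whose names start with Rps6k and Rpl10l were left out. This gave 84 genes of the 37991 identifiers in the count table, 50 with Rpl-type names (large subunit) and 34 with Rps-type names (small subunit), on 19 chromosomes. All 84 passed the filter on low counts. The rule also took Rps19bp1, which encodes a binding partner of a ribosomal protein, Rpl7l1, a relative of Rpl7 tied to ribosome assembly, and Rps27rt, a retro-copy of Rps27. Rps27rt is named after its values were seen.

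Germ cells of each embryo, on the C57BL/6 background, were sorted and sequenced on their own, with 26180685 to 35299206 counts a library. The 4 groups were female Ctrl (3 embryos), female CKO (2), male Ctrl (4) and male CKO (3), where CKO is a conditional knockout of Ezh2, the main methyltransferase of Polycomb repressive complex 2. The labels give neither the Cre driver, nor the alleles of the Ctrl embryos, nor the litters, so whether controls carried Cre or a floxed allele is not known here. Levels are library-scaled counts (CPM). Before a scaling factor of 0.926 to 1.11, 1 CPM stands for about 26.2 to 35.3 counts, depending on the library. Ezh2 itself was lower in each CKO embryo than in any Ctrl embryo of its sex. It was at 84.5 and 107 CPM in female CKO against 145 to 166 in female Ctrl (log2 difference -0.68 with SE 0.15, edgeR, adjusted p = 0.02). In males it stood at 82.4 to 85.8 CPM in CKO and 96.6 to 144 CPM in Ctrl (log2 difference -0.53 with SE 0.13, edgeR, adjusted p = 0.0527). Leaving out female CKO 1 (0.165) or female Ctrl 3 (0.0779) took the female difference past the threshold of 0.05, and over 15 alternatives its adjusted p ran from 0.00171 to 0.165. In males 5 of 17 alternatives passed, from 0.00644 to 0.192.

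Each ribosome carries 1 copy of nearly every ribosomal protein, and the genes are transcribed at high and matched rates in growing cells. Their messenger RNAs begin with a run of pyrimidines at the cap, the TOP motif, through which translation of the whole set is switched by the mTOR pathway and the binding protein Larp1. Several have autosomal copies that arose by retrotransposition, and in male meiosis, when the X chromosome is silenced, copies such as Rpl10l and Rpl39l are known to stand in for X-linked parents. At E13.5 female germ cells are entering meiosis and male germ cells are leaving the cell cycle. The comparisons ask how the set differed between CKO and Ctrl germ cells of each sex and between the sexes.

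The X-linked members and their autosomal copies carry several of the sex differences described below, so their coding sequences are shown for the 2 pairs of members of this kind. The sequences come from GENCODE M21 transcripts, 5′ to 3′, and capitals mark the bases at which the 2 genes of a pair differ. Rpl39 (chromosome X) and Rpl39l (chromosome 16) differ at 23 of 156 coding bases, an identity of 85.3%, and their longest identical run is 38 bases.
Rpl39: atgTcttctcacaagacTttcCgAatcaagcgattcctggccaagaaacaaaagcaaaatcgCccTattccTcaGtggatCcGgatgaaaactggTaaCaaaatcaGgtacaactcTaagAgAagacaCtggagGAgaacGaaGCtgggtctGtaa
Rpl39l: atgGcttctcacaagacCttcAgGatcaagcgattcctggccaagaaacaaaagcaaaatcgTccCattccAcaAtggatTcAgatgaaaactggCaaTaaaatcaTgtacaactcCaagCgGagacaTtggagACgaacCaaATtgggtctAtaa
Rpl36a (chromosome X) and Rpl36al (chromosome 12) differ at 39 of 321 coding bases, an identity of 87.9%, with a longest identical run of 24 bases, and coding bases 1 to 150 are shown.
Rpl36a: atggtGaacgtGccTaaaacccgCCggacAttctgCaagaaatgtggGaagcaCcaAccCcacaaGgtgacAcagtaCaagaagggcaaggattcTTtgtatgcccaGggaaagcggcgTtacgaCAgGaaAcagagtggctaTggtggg
Rpl36al: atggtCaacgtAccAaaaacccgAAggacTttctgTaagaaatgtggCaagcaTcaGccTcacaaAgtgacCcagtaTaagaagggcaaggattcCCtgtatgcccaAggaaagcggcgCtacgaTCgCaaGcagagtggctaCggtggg
No window of 50 bases is shared between the transcripts of these pairs. The same held for Rps4x with Rps4l, Rpl10 with Rpl10l, Rps27 with Rps27l, Rpl22 with Rpl22l1, Rpl3 with Rpl3l and Rpl7 with Rpl7l1. The read length is not given in the sources used here.

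Pseudogenes share more with this family. Over the 84 members, a median of 58.7% of the 50-base windows of the principal transcript also occurred in a transcript of another gene. In 53 members the share was over 50%, in 7 over 90%, and in 4 it was nil. Rps27 shared 98.7% of its windows with Rps27rt, so the split of counts between these 2 genes is uncertain. Rpl10 shared 92.1% with a pseudogene. Rpl7l1 (12.2%), Rpl39 (16.5%) and Rps4l (14.9%) shared few, and Rplp0 shared 41.8%. How the authors' counting treated reads with several matches is not given in the sources used here. The 196 pseudogene rows named after ribosomal protein genes took between 0.0806% and 0.11% of the counts of a library, against 3.09% to 3.93% for the members. Rps4l, at 423 to 799 CPM, is among these rows. Genes with other names, such as Gm12918, which held 80.3% of the windows of Rpl13, were not counted. These shares therefore do not measure how reads with several matches were split.

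The start of the transcript is the common regulatory feature of the family, and RefSeq promoter windows (GRCm38.p6) were available for 64 members. Within 50 bases on either side of the annotated start, the pentamer CTTTC, a simple pyrimidine run with the letters typical of a TOP start, was on the gene strand in 32 of 64 members (50%) and in 12.6% of 27025 annotated promoters. Counted on both strands the shares were 59.4% and 23.1%. The ETS-type motif CCGGAAG was on either strand in 13 of the 64 (20.3%, against 5.48%), TATAA in 11 (17.2%, against 9.52%) and CACGTG in 2 (3.12%, against 2.99%). Overlaps between motifs were not removed. The windows below run from 45 bases before the start to 15 bases from it, with CTTTC in capitals, and are shown for 8 members called in a sex comparison, 4 with the pentamer and 4 without it, chosen after their values were seen.
Rps15a (chr7:118116133-118116192, - strand): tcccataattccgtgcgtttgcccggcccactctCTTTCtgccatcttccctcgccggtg
Rpl15 (chr14:18270972-18271031, - strand): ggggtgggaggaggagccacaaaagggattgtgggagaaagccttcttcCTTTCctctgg
Rpl5 (chr5:107900483-107900542, + strand): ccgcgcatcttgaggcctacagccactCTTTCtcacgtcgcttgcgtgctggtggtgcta
Rpl38 (chr11:114668535-114668594, + strand): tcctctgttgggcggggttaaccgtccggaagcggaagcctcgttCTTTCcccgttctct
Rps4x (chrX:102189377-102189436, - strand): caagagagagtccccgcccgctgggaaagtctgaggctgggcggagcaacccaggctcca
Rpl39 (chrX:37085208-37085267, - strand): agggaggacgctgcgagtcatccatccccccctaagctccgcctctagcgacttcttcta
Rplp0 (chr5:115559422-115559481, + strand): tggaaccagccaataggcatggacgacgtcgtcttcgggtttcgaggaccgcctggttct
Rpl7l1 (chr17:46782642-46782701, - strand): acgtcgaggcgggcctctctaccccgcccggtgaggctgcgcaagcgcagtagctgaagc
Among the 4 with the pentamer, Rps15a was called higher in females and Rpl15, Rpl5 and Rpl38 lower. Among the 4 without it, Rps4x and Rpl39 were called higher and Rplp0 and Rpl7l1 lower. The annotated start may differ from the one used in these cells, and a match describes letters, not a bound site.

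The 84 members together took a similar share of all counts in every group. The share was 3.18%, 3.61% and 3.87% in the female Ctrl embryos and 3.75% and 3.54% in female CKO. In males it was 3.09%, 3.39%, 3.21% and 3.93% in Ctrl and 3.49%, 3.22% and 3.66% in CKO. All 4 groups overlapped, and the highest and the lowest share both belonged to male Ctrl embryos. Group means were 3.55% ± 0.351 (SD, n = 3), 3.64% ± 0.144 (n = 2), 3.4% ± 0.369 (n = 4) and 3.46% ± 0.223 (n = 3) in the same order.

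**Figure D1:**
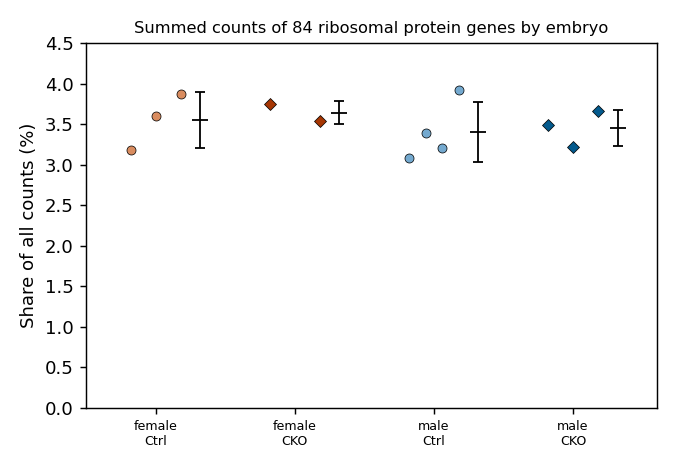
Share of all counts (%, vertical axis from 0) that fell on the 84 ribosomal protein genes, by group. Each point is 1 embryo, and the bar with caps is the group mean ± SD; the 4 groups overlap, from 3.09% to 3.93%.

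Levels were compared between members as CPM per kilobase of the shortest principal transcript, and which isoform these cells use is not known. The median over members was 538 CPM per kilobase. Rpl13 (1377 CPM per kilobase) and Rpl32 (1220), both core proteins of the ribosome, were among the highest. Rpl3l, the striated muscle form of Rpl3, was the lowest at 1.01 CPM per kilobase, followed by Rps27rt (22.6) and Rps19bp1 (37.2), so the 3 lowest were a tissue-specific form, a retro-copy and a gene whose product is not a ribosomal protein. The share of windows held in common with other genes had a rank correlation of 0.07 with the level per kilobase over the 84 members, and transcript length one of -0.09. These are descriptions across genes, which are not independent.

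No member was called between CKO and Ctrl germ cells of either sex. In females 0 of 84 members passed an adjusted p of 0.05 in edgeR, where 7.17% of all 16708 tested genes did. DESeq2 and limma-voom also called 0, and 4 members (Rpl39, Rpl36al, Rpl36a and Rpl10) had an unadjusted p under 0.05, all with lower values in CKO, against 23.4% of all genes. Of all genes 3.01% were called higher and 4.16% lower in female CKO. The smallest adjusted p was that of Rpl39, a small protein at the exit tunnel, at 0.149. Rpl39 stood at 176 and 110.2 CPM in female CKO and at 191, 218 and 198 CPM in female Ctrl (log2 fold change -0.50, SE 0.20). The groups did not overlap, but the 2 CKO embryos lay further from each other than the nearer of them lay from the controls. With a trend of transcript length removed from each library, Rpl36al was called as lower, the only member called in this comparison under any alternative.

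In males 0 of 84 members were called, against 1.7% of all genes (1.2% higher and 0.497% lower). DESeq2 and limma-voom again called 0, and 0 members had an unadjusted p under 0.05, against 16.7% of all genes. The smallest adjusted p was 0.459 in Rpl41, a very short basic peptide of the large subunit, with 274, 313, 320.4 and 417 CPM in Ctrl and 311, 244 and 279.7 CPM in CKO. The male groups overlapped in all 84 members, and the share of all genes whose male groups overlapped is not given here.

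The intervals of these differences were narrow for most members. In females the 95% interval of the log2 fold change lay within 1 on either side of 0 for 82 of 84 members, the exceptions being Rpl3l and Rps27rt, and within 0.5 for 56. In males it lay within 1 for all 84 and within 0.5 for 76. Of all tested genes, 51.6% in females and 60.5% in males had an interval within 1. The median log2 fold change of the members was -0.10 in females and -0.03 in males, beside -0.004 and -0.02 over all genes. In females 66 of 84 estimates were below 0 with library scaling by TMM (trimmed mean of M values) in the main test, but scaled by total counts alone 38 were, since that scaling moves the median of all genes to 0.11 and that of the members to 0.01. Steroidogenic and stromal markers summed to 10.7 to 27.6 CPM in female CKO and 3.63 to 9.46 CPM in female Ctrl. Of these, Star, Cyp17a1 and Hsd3b1 had lower means in CKO. The other listed genes had higher ones, led by Col3a1 (8.55 CPM in CKO and 2.73 CPM in Ctrl). Red blood cell markers summed to 16.4 and 1.14 CPM in female CKO and to 0.0921 to 2.06 CPM in female Ctrl. Of 5 endothelial markers, Pecam1, which germ cells also express, averaged 143 CPM in female CKO and 276 CPM in female Ctrl, while the other 4 had higher means in CKO at low levels (Tek 4 and 2.87 CPM, and Cdh5, Kdr and Emcn under 1 CPM in both groups). The part of other cells in the female values was not tested.

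The difference between the female and the male CKO effect was not called for any member, nor for any of the 16708 genes (0% called) in edgeR. DESeq2 called 50 of all genes and 0 members, and limma-voom 0. Rpl36al alone had an unadjusted p under 0.05 (difference of log2 fold changes -0.47, SE 0.18, edgeR adjusted p = 0.523), beside 8.38% of all genes. Its level was 148, 171 and 193 CPM in female Ctrl, 143 and 126 CPM in female CKO, 142, 187, 173 and 191 CPM in male Ctrl, and 192, 182 and 193 CPM in male CKO. Both female CKO embryos were below the female controls and the male CKO embryos overlapped the male controls.

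**Figure D2:**
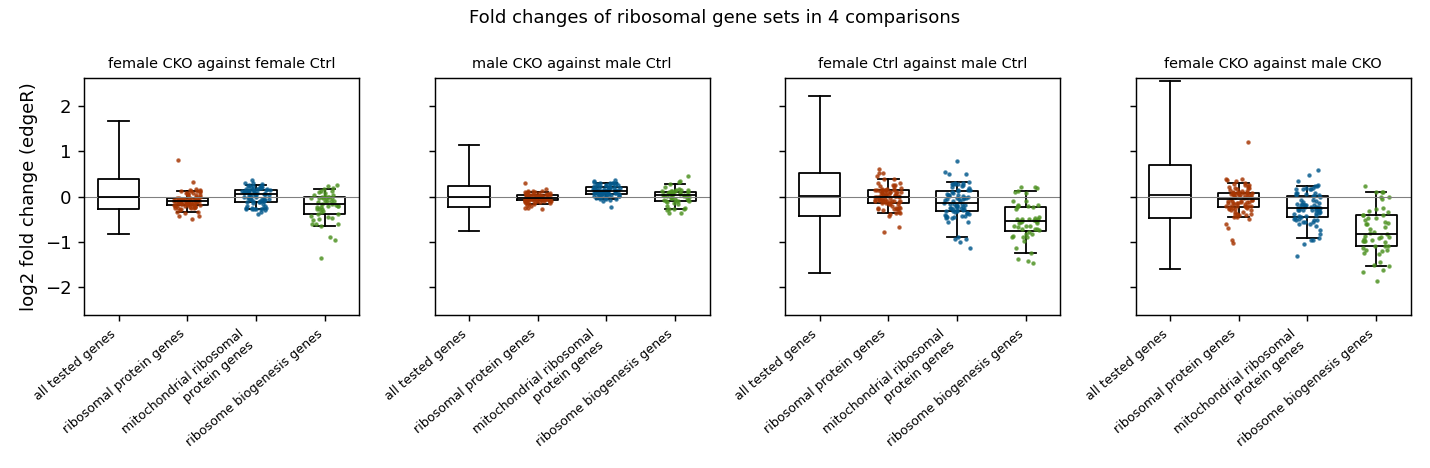
Log2 fold changes (vertical axis, edgeR) in 4 comparisons for all tested genes, the 84 ribosomal protein genes, mitochondrial ribosomal protein genes and ribosome biogenesis genes. Boxes show quartiles and the median, whiskers the 5th and 95th percentiles, points single genes; ribosomal protein genes lie close to 0 in both CKO comparisons (medians -0.10 and -0.03), and biogenesis genes lie lower in females in both sex comparisons (medians -0.54 and -0.83, and -0.44 and -0.65 with total counts).

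Between the sexes a minority of members differed. In controls 13 of 84 members (15.5%) were called, 4 higher and 9 lower in females, against 39.5% of all genes (20.1% higher and 19.4% lower). In CKO embryos 11 (13.1%) were called, 0 higher and 11 lower, against 38.4% of all genes (19.4% and 19%). The split by direction depends on scaling. With total counts alone the calls were 9 higher and 5 lower in controls and 11 higher and 5 lower in CKO embryos, and that scaling moves the median of all genes from 0.03 to 0.21 in the latter. The members' median was -0.001 in controls and -0.06 in CKO embryos, the latter 0.119 with total counts. Rpl15, Rpl29, Rpl5, Rpl6, Rpl7l1, Rplp0 and Rps7 were called lower in both comparisons, which use different embryos but come from 1 fit. With total counts, Rpl7l1 and Rplp0 alone of these were called lower in both. In the main test 17 members were called in at least 1 comparison. Shares of all genes called in both, in at least 1 or with total counts are not given here. These counts therefore do not set the members apart from other genes. The control comparison and the female CKO comparison share the female Ctrl embryos, and likewise each group enters 2 comparisons. The counts are of bulk RNA from sorted cells, so a different mix of cells and a different level per cell cannot be told apart.

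Markers of other gonadal cells also differed between the sexes, at low levels. Sertoli cell markers summed to 12.5 to 16.8 CPM in female Ctrl and 20.6 to 50.9 CPM in male Ctrl, with 5 of 8 lower in females, and Amh and Cst9 at 0 in all females. They summed to 13.9 to 14.1 CPM in female CKO and 18.4 to 42.6 CPM in male CKO. Pregranulosa markers summed to 13.7 to 23.7 CPM in female Ctrl, 15.7 to 16 CPM in female CKO and 2.65 to 4.42 CPM over the males, with 4 of 5 higher in control females. Germ cell markers summed to 5939 to 6592 CPM in all libraries, mostly Dazl and Ddx4, and of 11 such markers 3 were higher and 4 lower in control females, and 2 and 5 in CKO females. Among them Dppa3 was lower (-0.97 and -1.50 on the log2 scale) and Mael higher (0.57 and 1.53). The part of the other cells in the sex differences was not tested.

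The 4 X-linked members were Rps4x of the small subunit and Rpl10, Rpl36a and Rpl39 of the large subunit. Rps4x (ENSMUSG00000031320) stood at 749, 791 and 567 CPM in female Ctrl and at 473, 509.5, 481 and 587 CPM in male Ctrl. The third female lay within the male range and the other two above it. The difference on the log2 scale was 0.45 (SE 0.12, edgeR adjusted p = 0.00815). The call was lost without female Ctrl 2 (0.0589), and over 17 alternatives the adjusted p ran from 0.00133 to 0.0589.

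Rpl39 (ENSMUSG00000079641) was at 191, 218 and 198 CPM in female Ctrl and at 129, 116, 122 and 161 CPM in male Ctrl. Every control female was above every control male. The difference on the log2 scale was 0.62 (SE 0.16, edgeR adjusted p = 0.00878), and it was called in all 17 alternatives. Rpl36a (ENSMUSG00000079435), at 217, 201 and 177 CPM in female Ctrl and 121, 130.4, 129 and 176 CPM in male Ctrl, had a log2 difference of 0.51 (SE 0.16, edgeR adjusted p = 0.0214). Male Ctrl 4 lay just below the lowest female and apart from the other males. That call was lost without female Ctrl 1 (0.0857), female Ctrl 2 (0.064) or male Ctrl 1 (0.0525), and the adjusted p over the alternatives ran from 0.00492 to 0.0857.

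Rpl10 (ENSMUSG00000008682), which joins the large subunit last and completes its catalytic centre, was not called. It was at 372, 422 and 389 CPM in female Ctrl and at 328, 395, 380.4 and 453 CPM in male Ctrl, with a log2 difference of 0.02 (SE 0.11, edgeR adjusted p = 0.903) and a 95% interval from -0.22 to 0.26. The groups overlapped throughout. Over the whole chromosome, 671 X-linked genes were tested, their median log2 fold change was 0.41 and 36.2% were called higher in control females, beside a median of -0.01 for autosomal genes. The median of the 4 X-linked members was 0.48. Of the 80 autosomal members 1, Rps15a, was called higher.

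In CKO embryos the X-linked members were not called between the sexes. Rpl39 was at 176 and 110.2 CPM in female CKO and at 123, 103 and 149 CPM in male CKO (log2 fold change 0.19, SE 0.20). Rpl36a was at 185 and 111 CPM in female CKO and 137, 129.6 and 137 CPM in male CKO (0.14, SE 0.19). In both genes female CKO 1 was above all males and female CKO 2 was within or below their range, so the 2 embryos of the group differed. Rps4x was at 663 and 544 CPM against 469, 459.9 and 503 CPM (0.34, SE 0.14, edgeR adjusted p = 0.0766), with no overlap. It was called under total-count scaling, with the stricter filter on low values and with only the groups compared in the fit. Rpl10 was at 309.6 and 334 CPM against 381, 301 and 375 CPM (-0.13, SE 0.14). The median of the 4 genes was 0.17, while that of all X-linked genes was 0.54. The change of the sex difference with genotype was not called for any of the 4 (edgeR adjusted p of the interaction 0.678 for Rpl39, 0.702 for Rpl36a, 0.836 for Rpl10 and 0.893 for Rps4x).

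Of the autosomal copies of these 4 genes, Rps4l was the one called in both sex comparisons. Rps4l (ENSMUSG00000063171, chromosome 6), annotated as a transcribed processed pseudogene and therefore no member, stood at 423, 531 and 525 CPM in female Ctrl and at 714, 799, 668 and 691 CPM in male Ctrl. Every male was above every female (log2 difference -0.54 with SE 0.10, edgeR, adjusted p = 0.000811). The CKO embryos gave 457 and 538 CPM in females and 767, 784 and 791 CPM in males (-0.65, SE 0.12, edgeR adjusted p = 0.000943). Both calls held in all alternatives. The log2 ratio of Rps4l to Rps4x counts was between -0.82 and -0.11 in female Ctrl, -0.54 and -0.01 in female CKO, 0.23 and 0.65 in male Ctrl, and 0.65 and 0.77 in male CKO. Rps4l gave more counts than its X-linked parent in all 7 males and in 0 of the 5 females.

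Rpl39l (chromosome 16), a germline form of the exit tunnel protein, was at 40.1, 66.3 and 57.6 CPM in female Ctrl and at 50.8, 94.3, 59.1 and 76.7 CPM in male Ctrl (log2 difference -0.36 with SE 0.20, edgeR, adjusted p = 0.166). The groups overlapped. As a share of the pair, Rpl39l took 21.1% of counts in female Ctrl, 33.1% in female CKO, 34.5% in male Ctrl and 38.4% in male CKO. The log2 ratio of Rpl39l to Rpl39 was -1.92 ± 0.29 (SD, n = 3), -1.03 ± 0.477 (n = 2), -0.94 ± 0.448 (n = 4) and -0.69 ± 0.193 (n = 3), and all 3 female Ctrl embryos lay below every other embryo. Rpl10l (chromosome 12, named here for comparison, as the rule leaves it out) was at 39.2 to 55 CPM in female Ctrl, 68.3 to 72.4 CPM in female CKO, 39.2 to 83.2 CPM in male Ctrl and 59.2 to 71.5 CPM in male CKO, and was not called in any comparison.

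Rpl36al (chromosome 12) and Rpl36a gave nearly equal counts. The log2 ratio of Rpl36al to Rpl36a was -0.22 ± 0.337 in female Ctrl, -0.10 ± 0.388 in female CKO, 0.32 ± 0.181 in male Ctrl and 0.49 ± 0.00946 in male CKO. It was above 0 in all 7 males, but also in female Ctrl 3 (0.1245) and female CKO 2 (0.1789). Both of these females lay above male Ctrl 4 (0.1204), so the sexes overlapped. Rpl36al itself was lower in female than in male CKO embryos (log2 difference -0.49 with SE 0.14, edgeR, adjusted p = 0.0139) and close to equal in controls (-0.02, SE 0.12). The CKO call was lost without female CKO 2 (0.121) and with total counts (0.0753), and over 15 alternatives the adjusted p ran from 0.00229 to 0.121.

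**Figure D3:**
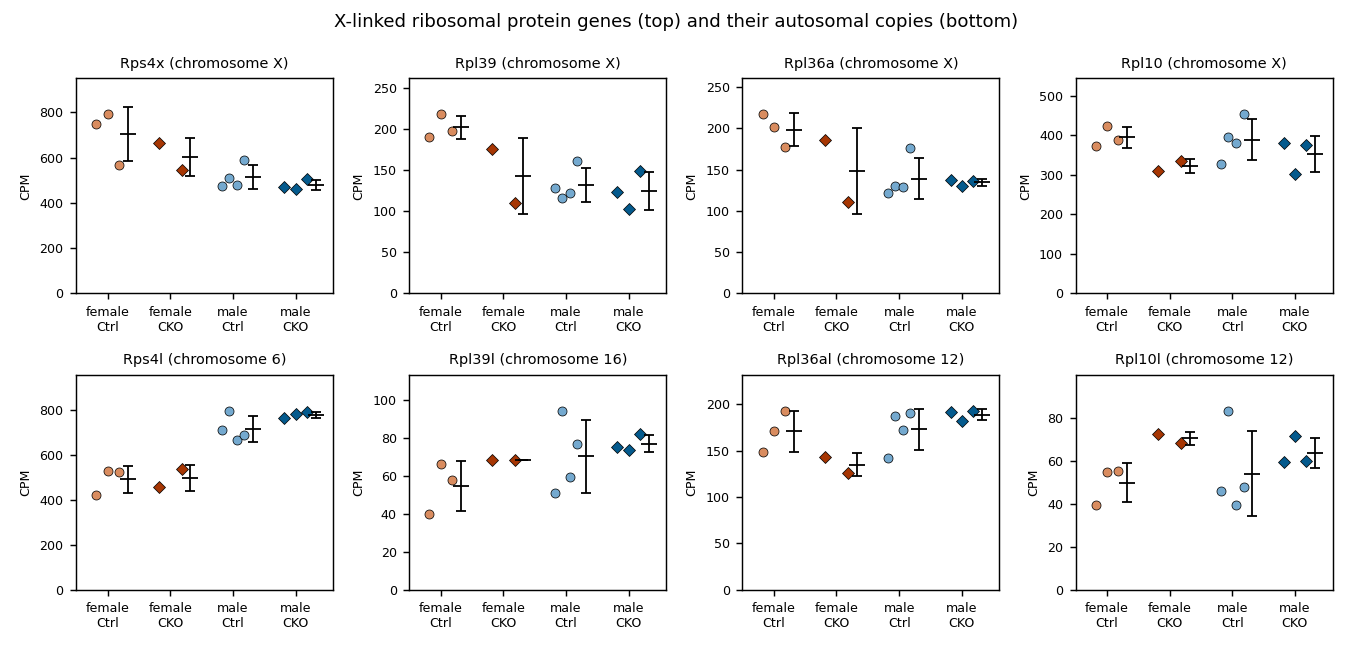
Levels (CPM, vertical axis from 0) of the 4 X-linked members in the upper row and of their autosomal copies in the lower row. Points are embryos (circles Ctrl, diamonds CKO), bars the group mean ± SD; Rps4l is at 668 CPM or more in every male and at 538 CPM or less in every female.

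Rpl7l1 (ENSMUSG00000063888, chromosome 17) differed most between the sexes by adjusted p. It was at 156, 163 and 175 CPM in female Ctrl and at 354, 287, 230.2 and 258 CPM in male Ctrl. The CKO embryos had 143 and 139.8 CPM in females and 289, 287 and 253 CPM in males. No male was as low as the highest female. The difference on the log2 scale was -0.78 (SE 0.12, edgeR adjusted p = 0.000307) in controls and -0.97 (SE 0.15, adjusted p = 0.000303) in CKO embryos, and both held in all alternatives. Its paralog Rpl7, a core subunit, overlapped between the sexes in controls at 691, 785 and 875 CPM in females and 802, 884, 818 and 981 CPM in males (-0.15, SE 0.09, adjusted p = 0.223). In CKO embryos Rpl7 did not overlap, at 724 and 715 CPM in females and 844, 799.7 and 864 CPM in males. It was not called there either (-0.22, SE 0.11, edgeR adjusted p = 0.15).

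The ribosomal stalk, which recruits the translation factors that split GTP, is built of Rplp0 as anchor and of Rplp1 and Rplp2 as dimers upon it. Rplp0 (ENSMUSG00000067274, chromosome 5) was at 392, 728 and 676 CPM in female Ctrl, 463 and 687 CPM in female CKO, 1002, 1251, 750.1 and 798 CPM in male Ctrl, and 1151, 1131 and 1199 CPM in male CKO. All females were below all males, and Rplp0 varied more between embryos than any other member (SD of log2 CPM 0.539, beside a median of 0.182 over members). The log2 fold change was -0.67 (SE 0.22, edgeR adjusted p = 0.0257) in controls and -1.01 (SE 0.26, adjusted p = 0.00846) in CKO embryos. In controls the call was lost without female Ctrl 1 (0.11), male Ctrl 1 (0.0532) or male Ctrl 2 (0.065), with no filter (0.11) and in limma-voom (0.0997), with a range from 0.00831 to 0.11. In CKO embryos it was lost without female CKO 1 (0.111), with a range from 0.000621 to 0.111.

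Rplp1 and Rplp2 were not called. Rplp1 (chromosome 9) was at 372, 448 and 523 CPM in female Ctrl and 308, 350.0, 340.4 and 458 CPM in male Ctrl, with an estimate of the opposite sign (0.30, SE 0.14, edgeR adjusted p = 0.108). In CKO embryos it was at 454 and 415 CPM against 349, 294 and 359.8 CPM (0.38, SE 0.17, adjusted p = 0.0905). Rplp1 was called higher in females under 6 of 17 alternatives in controls (adjusted p from 0.0142 to 0.376) and 6 of 15 in CKO embryos (0.0124 to 0.327), total counts among them. Rplp2 (chromosome 7) was at 366, 461 and 484 CPM in female Ctrl and 382, 469.8, 448 and 592 CPM in male Ctrl (-0.11, SE 0.14, adjusted p = 0.544).

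Rpl5 (ENSMUSG00000058558, chromosome 5) and Rpl11 (chromosome 4) join the ribosome with the smallest ribosomal RNA and, when free, bind the p53 regulator encoded by Mdm2. Rpl5 was at 739.5, 796 and 880.2 CPM in female Ctrl and 904, 1046, 911 and 1018 CPM in male Ctrl. It was at 789.5 and 741 CPM in female CKO and 964, 1125 and 1063 CPM in male CKO. Every female was below every male. The log2 fold change was -0.27 (SE 0.09, edgeR adjusted p = 0.0296) in controls and -0.46 (SE 0.11, adjusted p = 0.00482) in CKO embryos. The CKO call held in all 15 alternatives, while the control call was lost in 7 of 17, among them without female Ctrl 1 (0.118), female Ctrl 2 (0.075), male Ctrl 2 (0.0664) or male Ctrl 4 (0.0655), over a range from 0.0165 to 0.118. Rpl11 overlapped between the sexes, at 252 to 344 CPM in female Ctrl and 252 to 304 CPM in male Ctrl (0.10, SE 0.12, adjusted p = 0.551).

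Rpl29, a surface protein of the large subunit, was lower in every female than in every male. It was at 181, 203 and 228 CPM in female Ctrl, 175 and 189 CPM in female CKO, 234, 270.0, 261 and 285 CPM in male Ctrl and 249, 240.1 and 253 CPM in male CKO. The log2 fold change was -0.36 (SE 0.09, edgeR adjusted p = 0.00757) in controls, called in all 17 alternatives. It was -0.45 (SE 0.11, adjusted p = 0.00731) in CKO embryos, where the call was lost without female CKO 1 (0.0702) and with total counts (0.0595), over a range from 0.00128 to 0.0702.

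Rpl6 and Rps13, core proteins of the large and the small subunit, were lower in every control female than in every control male. Rpl6 was at 518, 586 and 633 CPM against 720.2, 752, 681 and 799.5 CPM (log2 difference -0.35 with SE 0.10, edgeR, adjusted p = 0.0112). Rps13 was at 226, 288 and 292 CPM against 305, 375, 351 and 418 CPM (-0.43, SE 0.12, adjusted p = 0.0118). Both calls were lost without female Ctrl 1 (0.0594 for Rpl6, with a range from 0.00345, and 0.0661 for Rps13, with a range from 0.00305). In CKO embryos Rpl6 was at 536 and 653 CPM against 713, 752 and 794 CPM (-0.34, SE 0.12, adjusted p = 0.0327), and 6 of 15 alternatives lost that call, without female CKO 1 (0.292) or any male CKO embryo (0.0507 to 0.123) among them. Rpl8, Rpl15 and Rps7, named after their values were seen, were also called lower in control females, with log2 fold changes of -0.26, -0.25 and -0.28. Those calls were lost in 7, 9 and 10 of 17 alternatives, all 3 without female Ctrl 1 (0.147, 0.142 and 0.21), without female Ctrl 2 (0.0601, 0.0994 and 0.0871), without male Ctrl 4 (0.0868, 0.0762 and 0.123) and with total counts (0.147, 0.138 and 0.168). Rpl15 and Rps7 were also lost without male Ctrl 2 (0.0684 and 0.0846) or male Ctrl 3 (0.0694 and 0.0708). Control females and males overlapped in Rpl15 (females up to 523 CPM, males from 503 CPM) and Rps7 (up to 484 CPM, from 468 CPM). They did not overlap in Rpl8 (up to 492 CPM, from 505 CPM).

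Rps15a, a small subunit protein, was the autosomal member called higher in control females. It was at 320.5, 371 and 428 CPM in female Ctrl and at 247, 282, 273 and 345 CPM in male Ctrl, with overlap of 1 male and 1 female. The log2 fold change was 0.38 (SE 0.12, edgeR adjusted p = 0.0264). The call was lost without female Ctrl 2 (0.0711), female Ctrl 3 (0.124), male Ctrl 1 (0.0701) or male Ctrl 3 (0.0591) and with the length trend removed (0.0807), over a range from 0.00597 to 0.124. In CKO embryos the estimate was similar (0.35, SE 0.15, adjusted p = 0.0745), with 385 and 356 CPM in females against 305, 255 and 309.6 CPM in males.

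Rpl38, required in mouse embryos for translation of Hox messenger RNAs, and Rps25, known for its role in initiation at internal ribosome entry sites, were called between the sexes in CKO embryos. Rpl38 was at 107 and 92.8 CPM in female CKO against 171, 154 and 162 CPM in male CKO (log2 difference -0.70 with SE 0.19, edgeR, adjusted p = 0.00928). Rps25 was at 341 and 264 CPM against 484, 439.8 and 459 CPM (-0.61, SE 0.16, adjusted p = 0.00965). In controls the estimates were -0.38 (adjusted p = 0.0666) and -0.25 (0.153), with overlap. Both CKO calls were lost without female CKO 2 (0.0843, range from 0.00118 for Rpl38, and 0.121, range from 0.00122 for Rps25). For neither gene was the change of the sex difference with genotype called (edgeR adjusted p 0.726 and 0.668). Rpl15 (-0.39), Rps7 (-0.40) and Rps14 (-0.39) were called in CKO embryos too, Rps14 being named after its values were seen. Total counts ended those calls (0.0927, 0.154 and 0.17). So did leaving out female CKO 1 for Rpl15 (0.0696), and for Rps7 and Rps14 female CKO 2 (0.193 and 0.183), male CKO 1 (0.0646 and 0.0622) or male CKO 3 (0.0826 and 0.0697).

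**Figure D4:**
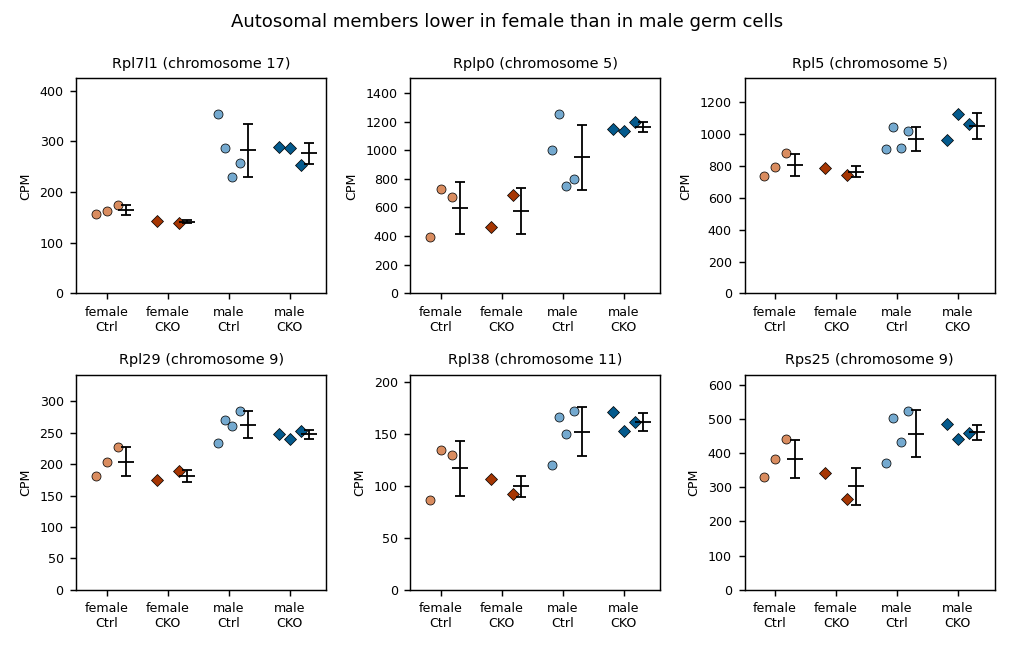
Levels (CPM, vertical axis from 0) by embryo of 6 autosomal members called lower in females in 1 or both sex comparisons. Circles are Ctrl, diamonds CKO, bars the group mean ± SD. In Rpl7l1, Rplp0, Rpl5 and Rpl29 all females are below all males. The margin is narrow in Rplp0 (728 against 750.1 CPM), Rpl5 (880.2 against 904 CPM) and Rpl29 (228 against 234 CPM).

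Other members with known roles outside the ribosome were not called. Rps6, the substrate of the kinase encoded by Rps6kb1, was at 650.2 to 760.3 CPM in control females and 546 to 664 CPM in control males (log2 difference 0.22 with SE 0.09, edgeR, adjusted p = 0.0668). Rpsa, which also acts as a laminin receptor, was at 651 to 757 CPM and 593 to 752 CPM (0.06, adjusted p = 0.645). Rps19, mutated in Diamond-Blackfan anaemia, was at 409 to 518 CPM and 363 to 491 CPM (0.12, adjusted p = 0.407), and Rps27a, made as a fusion with ubiquitin, at 369 to 524 CPM and 399.9 to 562 CPM (-0.08, adjusted p = 0.672). Rps19bp1 was at 30.2 to 33.2 CPM and 23.7 to 35.1 CPM (0.13, adjusted p = 0.496). Under alternatives Rps6 was called higher in females in 6 of 17 for controls (0.00788 to 0.207) and 2 of 15 for CKO embryos, and Rpsa in 5 of 15 for CKO embryos (0.00446 to 0.279).

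Rps27l, a p53-responsive copy, gave more counts than Rps27 in every embryo, 329 to 536 CPM beside 83.3 to 202 CPM, and the log2 ratio of counts was 1.68 ± 0.234 in female Ctrl, 1.85 ± 0.0133 in female CKO, 1.77 ± 0.279 in male Ctrl and 2.19 ± 0.203 in male CKO. The split between Rps27 and Rps27rt bears on this ratio. Rpl22l1 and its paralog Rpl22 gave 136.5 to 198 CPM and 124 to 192 CPM. Rpl3l was at 0.619 to 3.28 CPM in single embryos, where Rpl3 was at 675 to 980.1 CPM, and its highest level was in female CKO 1.

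Ribosomal proteins that the naming rule leaves out were followed for comparison. Fau, a fusion of a ubiquitin-like protein with a small subunit protein, was lower in females, at 148, 184 and 188 CPM in female Ctrl against 188, 270.1, 222 and 239 CPM in male Ctrl (log2 difference -0.41 with SE 0.12, edgeR, adjusted p = 0.0162) and -0.59 in CKO embryos (adjusted p = 0.00654). Rack1, a scaffold on the small subunit, was lower by 0.30 in controls on the log2 scale (adjusted p = 0.0243) and by 0.32 in CKO embryos (0.0404), the latter called in 7 of 15 alternatives. The control call of Rack1 was lost with total counts (0.0823) and without female Ctrl 1 (0.115) or male Ctrl 2 (0.0566), and the CKO call with total counts (0.296) and without any single CKO embryo but female CKO 2 (0.0673 to 0.269). The calls of Fau were lost without female Ctrl 1 in controls (0.0854, range from 0.00259) and without female CKO 1 in CKO embryos (0.0584, range from 0.00123).

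Members varied together from embryo to embryo within a group. Taking each gene's log2 CPM minus its group mean, the median correlation over 3486 pairs of members was 0.81 across the 12 embryos, beside 0.60 for 18 other TOP mRNA genes, 0.42 for 76 mitochondrial ribosomal protein genes and 0.32 for 51 ribosome biogenesis genes. These are descriptions, as the points share libraries, depth and scaling. The median member differed from its group mean by -0.19 in female Ctrl 1 (82 of 84 members below) and by -0.19 in male Ctrl 1 (81 below), and was higher by 0.17 in female Ctrl 3 (79 above) and by 0.23 in male Ctrl 4 (82 above). The median over all tested genes was within 0.01 of 0 in those 4 embryos. Other protein-coding genes with transcripts under 1000 bases moved the same way by less, with medians of -0.08, -0.09, 0.05 and 0.07 in the same 4 embryos. For the other TOP mRNA genes these were -0.19, -0.11, 0.15 and 0.07. Mitochondrial ribosomal protein genes had -0.13, -0.13, 0.096 and 0.03, and biogenesis genes -0.09, -0.05, 0.04 and -0.09. The median member transcript is 705 bases long. The part of transcript length or RNA quality in this was not tested.

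A few members stood outside the joint movement. Over the 12 embryos, the correlation of a member's deviation with the median deviation of all members was -0.23 for Rpl7l1, 0.16 for Rps4x, 0.19 for Rplp0, 0.30 for Rpl3l and 0.41 for Rpl36a. At the other end it was 0.99 for Rpl35a, a core subunit named after its value was seen. Rpl4, which lines the exit tunnel, had the smallest spread over the 12 embryos (SD of log2 CPM 0.0805, 1645 to 1976 CPM) and is also named after its value was seen.

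**Figure D5:**
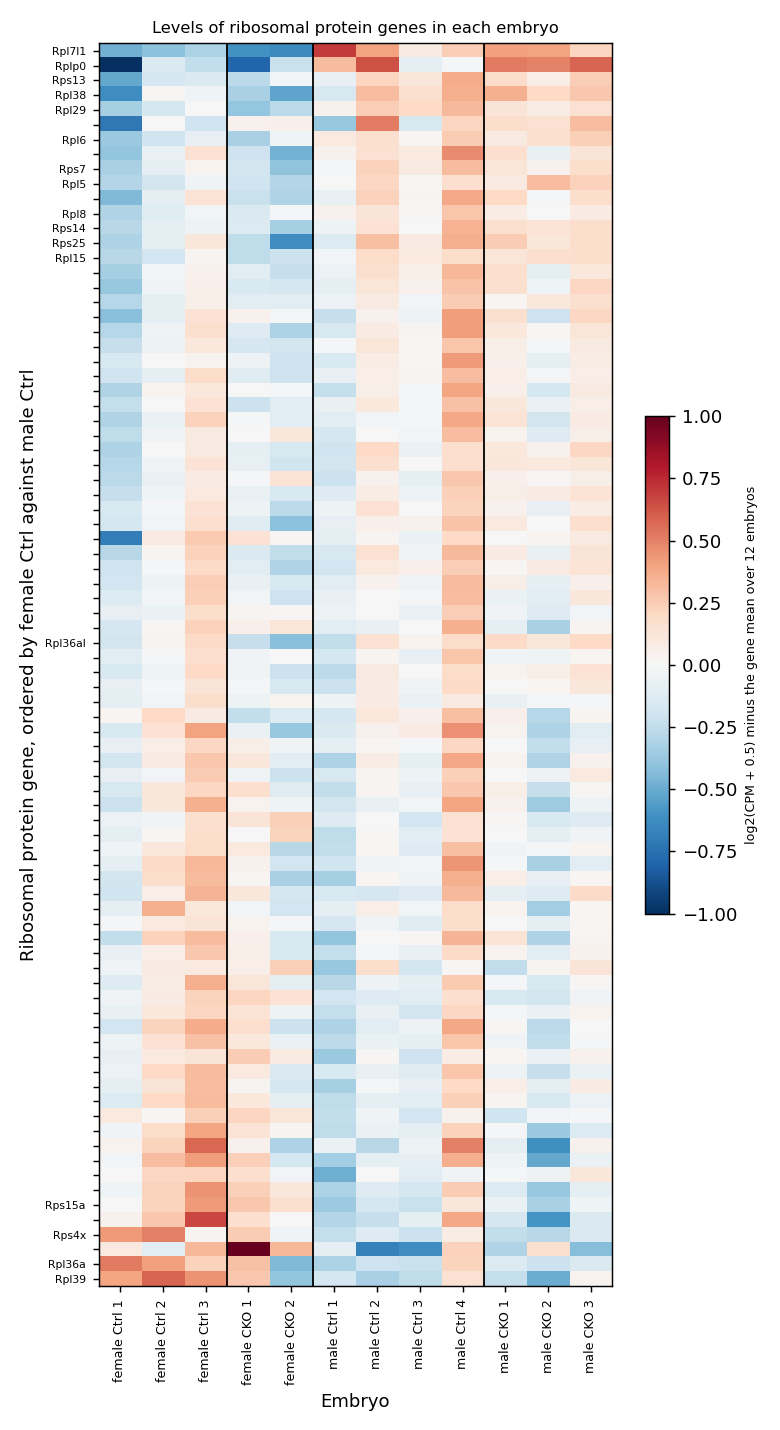
Level of each of the 84 members in each of the 12 embryos, as log2(CPM + 0.5) minus the gene's mean over embryos (colour scale from -1 to 1), with genes ordered by female Ctrl against male Ctrl and names given for the 17 members called in at least 1 sex comparison. Whole columns are shifted, as in female Ctrl 1 (below its group mean in 82 members) and male Ctrl 4 (above in 82), while Rpl7l1 and Rplp0 at the top are lower in all females than in all males.

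Genes that make ribosomes, taken from a list of assembly factors and RNA-modifying enzymes, were mostly lower in females. Of 51 tested ribosome biogenesis genes, 0 were called higher and 36 lower in control females (median log2 fold change -0.54), and 0 and 41 in CKO females against males (median -0.83). Of all tested genes 19.4% were lower in control females and 19% in CKO females, and 39.5% and 38.4% were called in either direction. With total counts the split was 4 and 35 in controls and 3 and 32 in CKO embryos. Nop2, a ribosomal RNA methyltransferase, was at 79.4, 92 and 90 CPM in female Ctrl against 182, 189, 199 and 195 CPM in male Ctrl (-1.13, edgeR adjusted p = 2.53e-06). Bop1 (-1.46) and Utp15 (-1.38), assembly factors of the large and the small subunit, had the next smallest adjusted p in controls. Of the 80 autosomal members, by comparison, 1 was higher and 9 were lower in control females.

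In the other lists most called genes were also lower in females, though the share called in controls was 42.1% for mitochondrial ribosomal proteins, 42.9% for RNA polymerase I and 33.3% for other TOP mRNA genes, near that of all genes. For mitochondrial ribosomal proteins 8 were higher and 24 lower of 76 tested in control females (median -0.15, led by Mrps30 at -0.94, and 15 and 17 with total counts), and 2 and 26 in CKO embryos (9 and 17 with total counts). For RNA polymerase I genes 0 and 6 of 14 were called in controls, led by Tcof1 (-1.38) and Polr1c (-0.96), and 0 and 6 in CKO embryos (0 and 5, and 1 and 4, with total counts). Among 18 other TOP mRNA genes 0 and 6 were called in controls and 0 and 10 in CKO embryos (1 and 5 with total counts), led by Hnrnpa1 (-0.70 and -1.47). Ribosomal protein chaperones had 0 and 3 of 6 in controls, with Aamp at -1.27, and 0 and 4 in CKO embryos. Among 12 regulators 0 and 5 were called in controls, including Rptor (-0.86), a subunit of the mTOR complex, and Mycn (-0.52), and in CKO embryos 1 was higher (Mtor, 0.56, named after its value was seen) and 5 were lower (1 and 4, and 2 and 5, with total counts).

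Between CKO and Ctrl females, where no member was called, 8 of 51 biogenesis genes were called lower and 0 higher (15.7%, against 7.17% of all genes called and 4.16% lower), a median of -0.16. Ncl, encoding nucleolin, fell from 1587, 1948 and 1932 CPM in Ctrl to 1174 and 806 CPM in CKO (log2 fold change -0.88, edgeR adjusted p = 0.00766). Tsr1 (-0.64), a late factor of the small subunit, and Nol6 (-0.61) were also lower. In the other lists Ubtf (-0.61), the RNA polymerase I activator, Hnrnpa1 (-0.78), Rptor (-0.65), Mycn (-0.50) and Rps6kb1 (-0.43) were lower, and 0 mitochondrial ribosomal protein genes and 0 chaperones were called. With total counts 5 biogenesis genes and 0 regulators were called lower and 1 mitochondrial gene higher. Between CKO and Ctrl males edgeR called 0 genes of the 6 lists, and with total counts 2 mitochondrial ribosomal protein genes and 1 biogenesis gene, all higher.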

How the data were processed

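Read counts per gene were used as deposited. Per the submitters' processing notes, the authors used CASAVA 1.8.4, Trimmomatic 0.33, TopHat2 2.0.11 and featureCounts with mm9 (NCBIM37), and the notes give no role or order. Per the labels' protocols, RNA of each embryo's sorted germ cells was amplified with SMART-seq V4, sheared and made into libraries that do not mark strand. Amplified reads without molecular identifiers are not independent molecules, so the precision that depth gives covers counting error alone.

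Of 37991 identifiers, 32938 had a symbol and held 99.5% of counts. Genes were filtered with edgeR's filterByExpr (minimum count 10, total 15), which left 16708. Libraries were scaled by TMM (factors 0.926 to 1.11). The main test was edgeR's quasi-likelihood test (edgeR 4.0.16, R 4.3.3) with 1 coefficient per group over all 12 libraries (8 residual degrees of freedom) and Benjamini-Hochberg adjustment over all tested genes, called at an adjusted p of 0.05. It was tested on simulated data. Alternatives were total counts, median-of-ratios factors, scaling without the members, other filters, fits on 2 groups at a time, a block for the replicate number, DESeq2 1.42.0, limma-voom (limma 3.58.1), removal of a length trend and leaving out each library.

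The labels give no litters, so p-values measure the spread between these embryos. Members and gene lists were chosen with earlier results of these data known. Genes named were Ezh2, the paralog pairs, the stalk genes, members with roles outside the ribosome, up to 6 called members of smallest adjusted p per direction and comparison, the 3 highest and 3 lowest per kilobase, the 4 of largest spread and up to 3 called genes per list and comparison. Some genes that this rule names are not reported here. Others are marked as named after their values were seen, and so are Rpl10l and the alternatives shown for genes near the threshold. Transcripts came from GENCODE M21 and promoters from RefSeq (GRCm38.p6), and no gene coordinates of mm9 were used.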

Additional observations from a re-analysis of the deposited data

Results flagged for a closer look

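In male Ctrl embryos, 49 values were tested for a sample far from the others, with Dixon's critical value of 0.829 for a group of 4, which chance exceeds in about 5% of groups. In 2 genes male Ctrl 4 stood apart. Rpl22l1 was at 196.1 CPM there and at 141, 139.8 and 144 CPM in the other male Ctrl embryos. Rpl36a was at 175.8 CPM there and at 121, 130.4 and 129 CPM in the others. In the same embryo 82 of 84 members were above their group mean.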

How the results depend on the processing

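The female and male CKO comparisons called 0 members under each alternative, except that removing the length trend called 1 in females (Rpl36al, lower). The difference of the CKO effects between the sexes also called 0 when any library was left out. The sex comparisons moved more. The share of all genes called in them under each alternative is not given here, so these counts do not set the members apart from other genes. With no filter 8 members were called in controls (4 higher and 4 lower), and with the length trend removed 23 (7 and 16). In CKO embryos 22 were called with the length trend removed (3 and 19), 17 in limma-voom (5 and 12) and 21 in a fit on the 2 groups alone (6 and 15). Total counts gave 9 higher and 5 lower in controls and 11 and 5 in CKO embryos, where the members' median became 0.119. The filter of at least 5 CPM gave 6 and 9 and 6 and 10, and DESeq2 4 and 10 and 3 and 12. Leaving out each library gave 7 to 14 members in controls (7 without female Ctrl 1 or female Ctrl 2) and 7 to 10 in CKO embryos (7 without female CKO 2). The causes of these shifts were not tested. The estimate of Rpl8 in CKO embryos, not called, changed sign with total counts (0.0542). Without the 3 members of highest level the summed share was 3.2173% in female CKO, 3.1573% in female Ctrl, 3.0739% in male CKO and 3.0217% in male Ctrl.

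Whether replicate numbers in the sample titles pair the embryos was not tested. Correlations of same-numbered deviations ran from -0.0175 to 0.0401 over 3 male pairs, beside -0.046 to 0.0368 for differently numbered ones. Over 3 control pairs of the sexes they ran from 0.0205 to 0.165, beside -0.186 to 0.0907. They were -0.0167 and 0.168 between female CKO and Ctrl, and -0.116 and -0.0402 between the sexes in CKO embryos. The 2 female CKO embryos give mirrored values, since deviations are taken from their mean. With the replicate number as a block, 0 members were called in both CKO comparisons, 14 in the control sex comparison (9 higher and 5 lower) and 15 in the CKO sex comparison (4 and 11). The descriptions number some female embryos differently. By those numbers the 3 control pairs of the sexes gave 0.165, -0.0651 and 0.0907 and the 2 CKO pairs 0.116 and 0.0632. Whether those numbers pair the embryos was not tested either. A replicate block by the description's number was chosen after seeing the data and is not counted among the alternatives above. It called 0 members in both CKO comparisons and 16 in the control sex comparison (6 higher and 10 lower). In the CKO sex comparison it called 26 (5 and 21), beside 6335 of all 16708 genes. Rplp0 was not called in controls with this block (edgeR adjusted p = 0.0677). With 2 female CKO embryos, the median SE in females was 0.143 on the log2 scale, against 0.12 in males.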
